A study of Homo sapiens with 4 samples.

Results

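The genes CDKN2A, CDKN2B and MTAP lie side by side on the short arm of chromosome 9, and were examined here in the window chr9:21000000-23000000 (hg38). The members are the STARR-seq peaks whose summit, the point of highest fragment coverage, falls in that window. There were 38 such peaks in 4 peak lists, of 270743 deposited peaks in all. By list they numbered 4 under DMSO, 23 under SHP1705, 7 under MG132 and 4 under the combination. STARR-seq places genomic fragments behind a minimal promoter on plasmids, and the reporter RNA that active fragments give rise to is sequenced. All libraries came from MDA-MB-231, an established breast cancer line, transfected with a plasmid pool of its own sheared DNA. The medium held DMSO as control, 10 µM SHP1705, 100 nM MG132, or the 2 compounds together at these doses (the combination), and RNA was extracted 8 h after transfection. The submitters describe SHP1705 as a stabilizer of the clock repressor CRY, and MG132 inhibits the proteasome. There was 1 library per treatment, so treatments are compared with no replicate check, no test and no p-value.

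CDKN2A encodes 2 unrelated tumour suppressors from alternative first exons. The protein p16 inhibits the cyclin D kinases CDK4 and CDK6 and so keeps RB active, while ARF inhibits MDM2 and so protects p53. CDKN2B encodes p15, a second inhibitor of those kinases. MTAP encodes the enzyme that recycles methylthioadenosine, a by-product of polyamine synthesis, to methionine. The 3 genes are often lost together in cancer, and MDA-MB-231 is known as a line that has lost CDKN2A. The locus is described here by its position, and whether the cells used had lost it was not tested. All 4 lists held peaks between the start of MTAP and the end of CDKN2B. SHP1705 had 11 there and each other list had 2. The pileups of the latter were 21 and 28 fragments under DMSO, 18 and 19 under MG132, and 70 and 725 under the combination. With every list cut to the 47822 peaks of the shortest, MG132 kept 0 peaks there, SHP1705 7, DMSO 2 and the combination 2. The library labelled SHP1705 stood apart from the others in depth and in the share of promoters under its peaks, both given below. Whether all of its fragments at the 3 genes came from reporter plasmids of this cell line was not tested, and every SHP1705 count and height at CDKN2A, CDKN2B and MTAP carries that limit. Library data on the plasmid DNA itself were not analysed here, so the lists show where fragments aligned and not how many copies of a position the plasmid pool held.

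The promoters of the 3 genes are shown first because 1 of them lay wholly inside a peak. They were taken from RefSeq (GRCh38.p14, whose chromosome 9 has the coordinates of hg38), from 250 bases before to 50 bases after a start site, and are written 5′ to 3′ on the strand of the gene. CDKN2A has 2 entries, named here for the protein whose first exon is known to follow each start. Capitals mark the GC box, GGGCGG on either strand.
MTAP promoter, chr9:21802386-21802685, plus strand: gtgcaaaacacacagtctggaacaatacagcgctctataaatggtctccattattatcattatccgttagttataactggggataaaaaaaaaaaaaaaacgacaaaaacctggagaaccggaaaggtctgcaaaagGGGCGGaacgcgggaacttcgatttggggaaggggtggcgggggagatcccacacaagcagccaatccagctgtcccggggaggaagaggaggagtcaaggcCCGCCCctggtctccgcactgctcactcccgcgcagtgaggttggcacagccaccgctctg
CDKN2A p16 promoter, chr9:21974808-21975107, minus strand: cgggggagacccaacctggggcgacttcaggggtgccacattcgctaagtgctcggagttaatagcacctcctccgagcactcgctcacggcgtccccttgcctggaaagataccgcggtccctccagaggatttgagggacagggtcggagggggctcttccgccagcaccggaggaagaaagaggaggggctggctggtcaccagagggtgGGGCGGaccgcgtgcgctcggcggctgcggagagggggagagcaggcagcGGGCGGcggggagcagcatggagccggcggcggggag
CDKN2A ARF promoter, chr9:21995275-21995574, minus strand: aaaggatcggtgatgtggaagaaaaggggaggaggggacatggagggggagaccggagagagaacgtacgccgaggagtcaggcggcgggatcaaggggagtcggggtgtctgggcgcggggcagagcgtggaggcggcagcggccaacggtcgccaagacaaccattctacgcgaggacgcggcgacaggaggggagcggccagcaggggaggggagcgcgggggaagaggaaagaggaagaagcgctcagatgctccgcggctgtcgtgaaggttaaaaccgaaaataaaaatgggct
CDKN2B promoter, chr9:22009256-22009555, minus strand: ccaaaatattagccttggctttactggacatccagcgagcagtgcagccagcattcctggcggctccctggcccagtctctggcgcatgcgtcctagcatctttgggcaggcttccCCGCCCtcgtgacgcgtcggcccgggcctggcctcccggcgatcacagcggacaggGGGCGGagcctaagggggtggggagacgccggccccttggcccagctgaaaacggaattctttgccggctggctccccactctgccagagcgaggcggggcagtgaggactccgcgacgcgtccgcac
The search also covered the E-box CACGTG, the element bound by the clock activators that CRY represses, the AP-1 site TGANTCA, and the E2F site TTTNGCGC, all on both strands. None of these 3 occurred in the 4 promoters. Among all 35116 promoters in the table, 7.26% held the E-box, 7.71% the AP-1 site, 1.79% the E2F site and 45.0% the GC box. The GC box occurred 2 times each in the MTAP, p16 and CDKN2B promoters and 0 times in the ARF promoter, and no 2 matches overlapped. The GC content was 53.0% for MTAP, 69.0% for p16, 63.3% for ARF and 67.3% for CDKN2B, beside a median of 58.7% over the table. A SHP1705 peak, chr9:21974705-21975160, covered all 300 bases of the p16 promoter. Another, chr9:22008873-22009277, covered 22 bases of the CDKN2B promoter. No other list had a peak over any of the 4 promoters. Over all promoters on chromosomes 1 to 22 and X, a peak overlapped 1.35% under DMSO, 14.8% under SHP1705, 1.99% under MG132 and 1.52% under the combination.

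The lists differ in depth. SHP1705 had 118324303 fragments, and the others 27289266 to 29717604. The pileup of a peak is the number of fragments that cover its summit, and is given here as deposited or per 1000000 fragments of its library. The fold of a peak is the authors' ratio of pileup to background in the same library, each plus 1. That background, worked back from the fold, never fell below a library-wide level of 3.81 fragments under DMSO, 13.1 under SHP1705, 3.58 under MG132 and 3.73 under the combination, and was higher where the surrounding 10000 bp held more. In the window 4 of 4 DMSO, 7 of 23 SHP1705, 6 of 7 MG132 and 3 of 4 combination peaks were at that lowest level. On the rest of the arm 12.4% of DMSO, 61.8% of SHP1705, 22.7% of MG132 and 15.9% of combination peaks were at that level. The 11 SHP1705 peaks of the stretch over the genes were all above it, so their folds are relative to the coverage around them. The caller returned no peak narrower than 299 bp with SHP1705, nor narrower than 346 to 355 bp elsewhere. Intervals are exact Poisson 95% limits on counts and cover counting error only, with 1 library per treatment and duplicates kept. They do not allow for peaks that cluster along the arm.

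The window as a whole held few peaks. In DMSO it had 0.200 summits per 100 kb (0.0545 to 0.512), against 1.0 over the rest of the short arm, taken to 43 Mb. MG132 had 0.350 (0.141 to 0.721) against 1.61, and the combination 0.200 (0.0545 to 0.512) against 1.33. SHP1705 had 1.15 (0.729 to 1.73) against 1.99. The ratio of window to rest was 0.199 under DMSO, 0.217 under MG132, 0.150 under the combination and 0.577 under SHP1705. All 4 intervals lay below the rate of the rest. Per 1000000 fragments of each library the window held 0.135 summits under DMSO, 0.194 under SHP1705, 0.257 under MG132 and 0.141 under the combination.

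**Figure D1:**
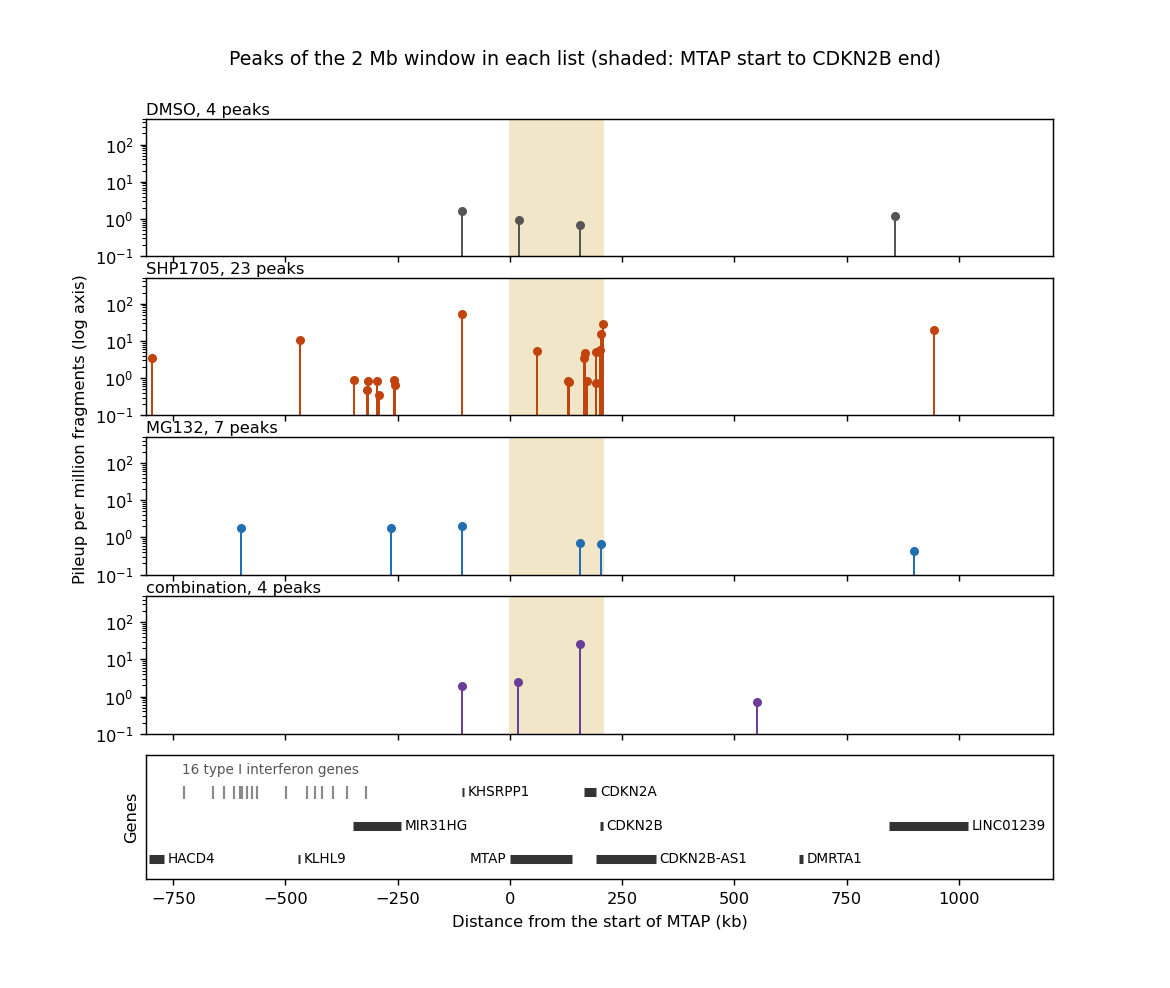
Each point is a peak summit of the 2 Mb window, at its distance from the start of MTAP in kb (horizontal axis) and its pileup per 1000000 fragments on a log axis (vertical), with 1 panel per list and the genes below. The shaded stretch runs from the start of MTAP to the end of CDKN2B; SHP1705 has 11 summits there and each other list has 2, and the peaks of 1 region outside the shading are not drawn.

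Sparse peaks were not particular to the window. Cut into 2 Mb windows, the rest of the arm ranged from 1 to 48 summits under DMSO (median 15.0), from 4 to 108 under SHP1705 (median 33.0), from 2 to 78 under MG132 (median 28.0) and from 3 to 64 under the combination (median 22.5). In every list the lowest of these was the neighbouring window from 23 to 25 Mb, with 1, 4, 2 and 3 summits in the same order. The window on the other side, from 19 to 21 Mb, held 21, 33, 36 and 24. Of the 20 other windows of the arm, 2 had as few summits as the CDKN2A window or fewer under DMSO, 6 under SHP1705, 1 under MG132 and 1 under the combination. Set beside the 10 Mb on either side alone, a comparison chosen after the values were seen, the ratio rose to 0.336 under DMSO, 0.302 under MG132, 0.193 under the combination and 0.852 under SHP1705. Among 1367 other 2 Mb windows of chromosomes 1 to 22 and X that hold a whole protein-coding gene, 0.585% had as few summits or fewer under DMSO, 0.439% under MG132, 0.366% under the combination and 5.63% under SHP1705.

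**Figure D2:**
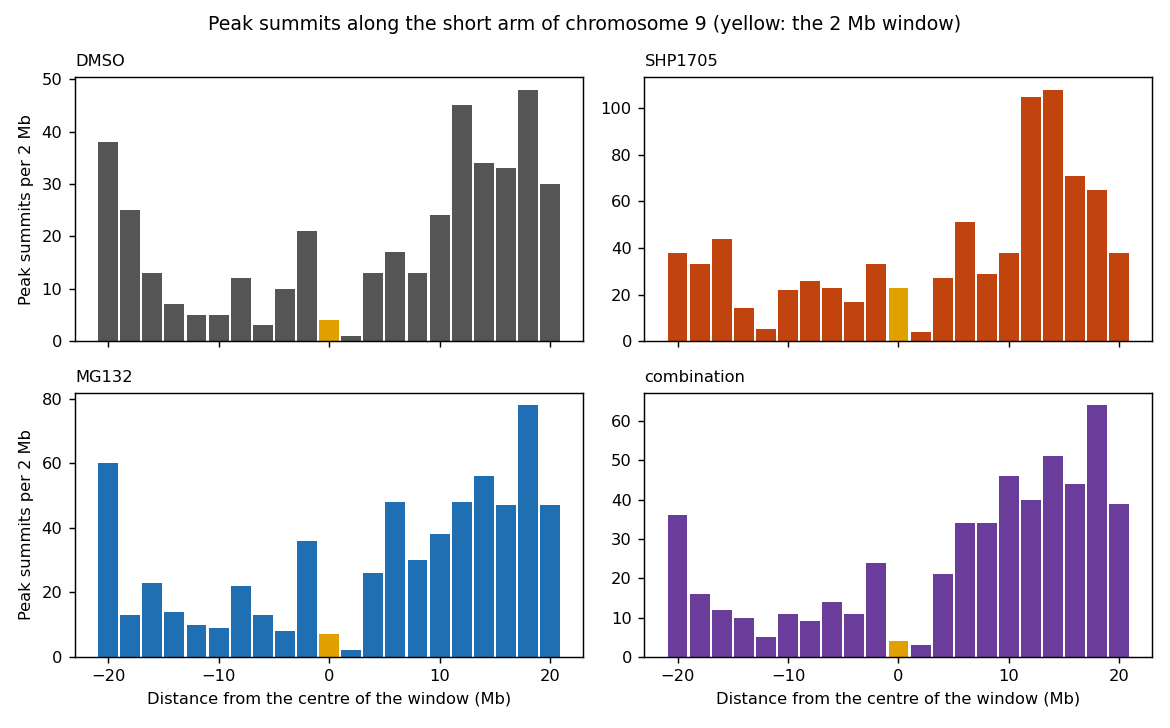
Bars give peak summits per 2 Mb along the short arm of chromosome 9 in each list, against the distance in Mb from the centre of the CDKN2A window, which is drawn in yellow. The bar just to the right of the window is the lowest of the arm in all 4 lists, at 1, 4, 2 and 3 summits for DMSO, SHP1705, MG132 and the combination.

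Within the window, peaks were denser over the 3 genes than elsewhere in every list as deposited, though under MG132 not with lists of equal length, where 0 of its summits were over the genes and 1 elsewhere. The stretch from the start of MTAP to the end of CDKN2B, 207 kb long, held 2 summits under DMSO, 2 under MG132 and 2 under the combination (0.242 to 7.22 each), or 0.968 per 100 kb. SHP1705 had 11 (5.49 to 19.7), or 5.32 per 100 kb (2.66 to 9.52). At the rates of the rest of the arm, 2.08 would be found under DMSO, 3.33 under MG132, 2.75 under the combination and 4.12 under SHP1705. In 3 lists the limits held the number expected, but were too wide to place the stretch near that rate. The SHP1705 count was above the number expected, and its limits excluded it. Those limits do not cover uneven spacing. SHP1705 bins of 100 kb on the rest of the arm held 1.99 summits on average (standard deviation 2.35, highest 16). Pileups of the stretch were 21 and 28 under DMSO, against a median of 238 on the rest of the arm. Under MG132 they were 18 and 19 against 144, and under the combination 70 and 725 against 190. Per 1000000 fragments the stretch held 0.0673 summits under DMSO, 0.0930 under SHP1705, 0.0733 under MG132 and 0.0706 under the combination, a narrower range than the counts. Peak totals did not rise in proportion to fragments, with 85840 peaks from 118324303 fragments under SHP1705 and 47822 from 29717604 under DMSO. With lists of equal length SHP1705 kept 7 of its 11, and its ratio over the 3 bins that hold the genes was 2.44 against 2.01. The other 1793 kb of the window held 2 summits under DMSO, 12 under SHP1705, 5 under MG132 and 2 under the combination. That is 0.112, 0.669, 0.279 and 0.112 per 100 kb, or 0.111, 0.336, 0.173 and 0.0837 of the rate of the rest of the arm.

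Counted in fixed bins of 100 kb, 16 of the 20 bins of the window were empty under DMSO, 11 under SHP1705, 14 under MG132 and 16 under the combination. On the rest of the arm 44.1% of 410 bins were empty under DMSO, 30.5% under SHP1705, 31.7% under MG132 and 38.5% under the combination. The window shares were 80.0% (Wilson 95% interval 58.4 to 91.9) under DMSO and the combination, 55.0% (34.2 to 74.2) under SHP1705 and 70.0% (48.1 to 85.5) under MG132. In all 4 lists at once, 8 bins of the window were empty, and 11 without SHP1705. Joint counts were not made on the rest of the arm, so these have no background share. The 3 bins that hold the genes, from 21.8 to 22.1 Mb, had 1, 1 and 0 summits under DMSO, 1, 7 and 4 under SHP1705, 0, 1 and 2 under MG132 and 1, 1 and 0 under the combination. Over the rest of the arm these 3 bins gave a ratio of 0.663 (0.0803 to 2.40) under DMSO, 2.01 (1.04 to 3.51) under SHP1705, 0.621 (0.128 to 1.82) under MG132 and 0.501 (0.0606 to 1.81) under the combination. The second of these bins, with all of CDKN2A, held a peak in every list, and its SHP1705 count of 7 was at or above that of 96.1% of bins on the rest of the arm.

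**Figure D3:**
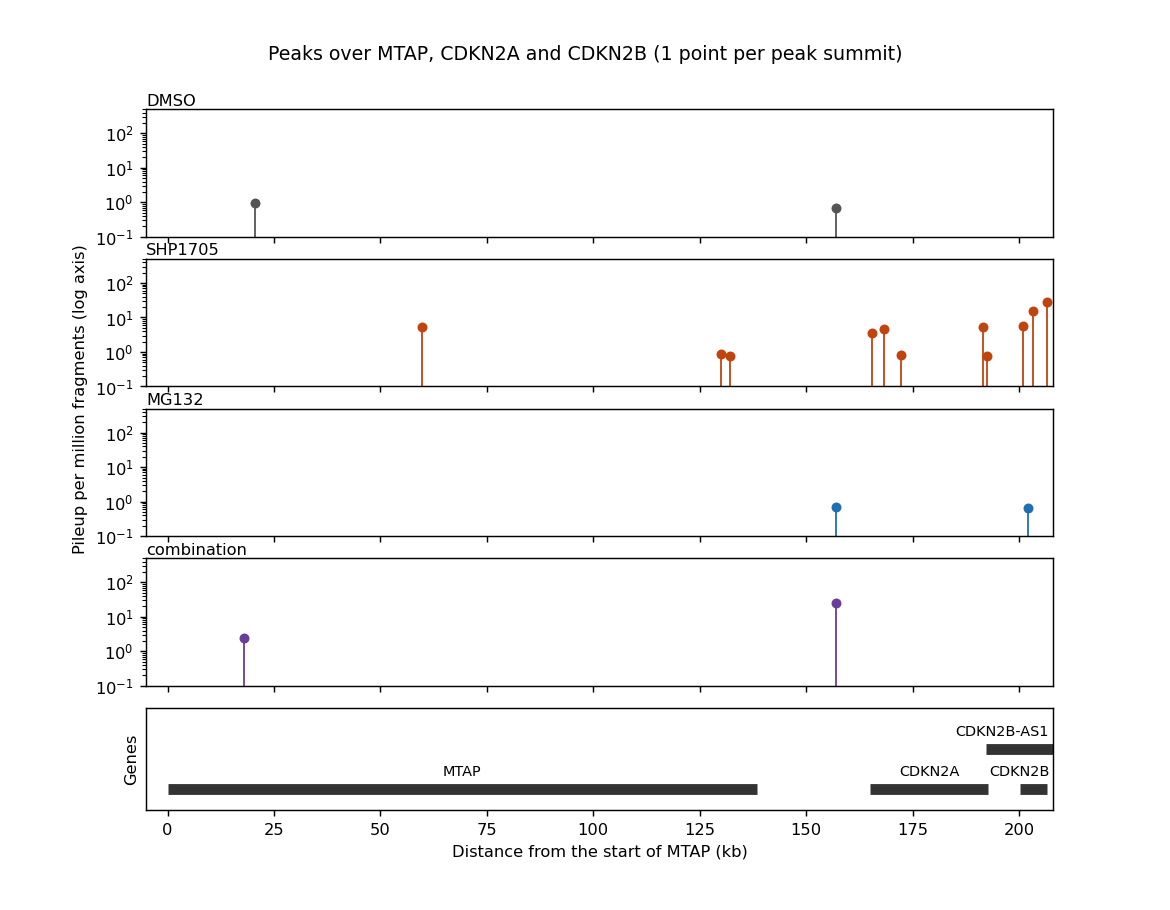
Each point is a peak summit over MTAP, CDKN2A and CDKN2B, at its distance from the start of MTAP in kb (horizontal axis) and its pileup per 1000000 fragments on a log axis (vertical), with gene extents below. DMSO, MG132 and the combination share 1 position between MTAP and CDKN2A, and the SHP1705 summits lie inside the 3 genes.

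CDKN2A (chr9:21967752-21995324) held 5 SHP1705 summits and none in the other 3 lists. Of the 4162 protein-coding genes within 1.5 times its length, 83.7% held a summit under SHP1705, 38.6% under DMSO, 52.1% under MG132 and 43% under the combination. Having none was therefore common in those 3 lists, and 8.10% of these genes had as many SHP1705 summits or more. The upper Poisson limit of a count of 0 is 3.69 summits. From the end of the gene to its start, the 5 peaks had pileups of 409, 550, 98, 610 and 90 fragments. Per 1000000 fragments these heights were 3.46, 4.65, 0.828, 5.16 and 0.761, and the authors' folds were 11.4, 13.0, 3.52, 23 and 3.50. The peaks thus fell into 3 tall ones and 2 low ones. The first, chr9:21967820-21968259, lay at the end of the gene, which is read from the minus strand. The second, chr9:21970891-21971222, was 332 bp wide and the fourth, chr9:21994125-21994436, was 312 bp wide, both under the minimum width of the other 3 lists. The fourth also covered 154 bases of the promoter of LOC124902130, an uncharacterized entry. The third, over the p16 promoter, had its summit 147 bp before the start site, at a fold of 3.52. The fifth, chr9:21994871-21995247, had its summit 304 bp after the ARF start site. Exon positions were not used here.

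Most of these peaks would be tall enough for the other lists after scaling for depth. Scaled to the fragments of DMSO, the pileups at CDKN2A would be 103, 138, 24.6, 153 and 22.6, and the lowest pileup called on the arm under DMSO was 13. Of the 11 SHP1705 peaks of the stretch, 9 were both wide enough and, after scaling, tall enough for each of the other lists, judged by that list's minimum width and lowest pileup on the arm. DMSO and the combination had an overlapping peak at 0 of these 9, and MG132 at 1. Over whole lists 90.0% of SHP1705 peaks had no DMSO peak, 89.7% no combination peak and 88.3% no MG132 peak. Those shares were not limited to peaks wide and tall enough for the other list. No result about the locus is read from the 9 peaks. The local background, which the caller also uses, could not be scaled in this way.

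CDKN2B (chr9:22002903-22009313), the shortest of the 3 genes at 6.41 kb, had the tallest SHP1705 peaks of the 3. SHP1705 had 3 summits, with pileups of 675, 1864 and 3289 fragments, or 5.70, 15.8 and 27.8 per 1000000. The tallest of these, at the start of the gene, had its summit 185 bp after the start site and ranked 13 among the 216 protein-coding genes of the arm by tallest SHP1705 peak. MG132 had 1 summit, chr9:22004610-22005013, with 18 fragments or 0.660 per 1000000, which overlapped the second SHP1705 peak. DMSO and the combination had none. The folds of the SHP1705 peaks were low, from 2.05 to 4.21, beside a median of 5.03 on the rest of the arm. Among 2703 genes of similar length, 59.0% held a summit under SHP1705, 16.3% under DMSO, 22.3% under MG132 and 18.0% under the combination, and 6.18% had as many under SHP1705 or more. The noncoding RNA CDKN2B-AS1 (chr9:21994791-22128142), known as ANRIL, runs over CDKN2B in the opposite direction. Without strand in the peak lists, peaks of the 2 genes cannot be told apart.

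MTAP (chr9:21802636-21941115) held 3 summits under SHP1705, 1 under DMSO, 1 under the combination and 0 under MG132. The SHP1705 pileups were 644, 102 and 91 fragments, or 5.44, 0.862 and 0.769 per 1000000, and the tallest peak, chr9:21861983-21865857, was 3875 bp wide. The DMSO peak, chr9:21823027-21823523, had 28 fragments (0.942 per 1000000), a height that only 4.43% of DMSO peaks were below. The combination peak, chr9:21820445-21820944, had 70 fragments (2.47 per 1000000). No 2 of these 5 peaks overlapped. Among 2281 genes of similar length, 96.8% held a summit under SHP1705, 82.1% under DMSO, 92.1% under MG132 and 87.3% under the combination, with medians of 4, 2, 3 and 2 summits. MTAP was at or below the median of such genes in every list. Unlike CDKN2A and CDKN2B, its promoter had no SHP1705 peak nearby, the closest SHP1705 summit being 59.8 kb away. In DMSO, MG132 and the combination the summits closest to the MTAP start were 20.6, 107 and 18.0 kb away. For the CDKN2B start the distances were 49.6, 2.94 and 49.6 kb, and for the ARF start 35.6, 9.475 and 35.6 kb. For the p16 start they were 15.1 kb in each of these lists.

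The site most often shared over the locus lay in no annotated gene, between MTAP and CDKN2A, with the DMSO summit 8029 bp from CDKN2A. DMSO had a peak there at chr9:21959556-21959991 with 21 fragments, and MG132 at chr9:21959648-21960088 with 19. The combination had one at chr9:21959540-21960084 with 725 fragments. Per 1000000 fragments the heights were 0.707, 0.696 and 25.6. The combination peak was taller than 96.8% of its list and had a fold of 27.1, while the DMSO and MG132 peaks were among the lowest 2.29% and 1.74% of theirs. SHP1705 had no peak at this site, although the DMSO height would be 83.6 fragments at its depth, above its lowest pileup on the arm of 28. This was the only one of 31 merged regions of the window held by exactly 3 lists. Merged regions were not counted outside the window.

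No list had a peak-free interval that matched the extent of the 3 genes. In DMSO the peak-free interval over CDKN2A ran from 21959992 to 22661495, 702 kb, and also held CDKN2B and DMRTA1. In the combination it was 394 kb, from 21960085 to 22353641, and under MG132 45 kb, from 21960089 to 22004609. In SHP1705 there was none. These ranked 8 of 415, 18 of 549 and 243 of 666 peak-free intervals of the arm by length under DMSO, the combination and MG132. With every list cut to the 47822 peaks of the shortest, the interval over CDKN2A was 1247 kb under MG132 and 2034 kb under the combination. The longest under DMSO and MG132 began inside the window and ran past its end, from 22661950 to 24857638 (2196 kb) and from 22703549 to 24857756 (2154 kb), and held ELAVL2 and IZUMO3. For DMSO it was also the longest of 6048 such intervals on chromosomes 1 to 22 and X that hold a whole protein-coding gene. Counting only intervals with a whole coding gene, the 4 longest of 2318 over all 4 lists were on this arm, at IZUMO3 (647 kb), SH3GL2 (587 kb), DMRTA1 (307 kb, inside the window) and ELAVL2 (232 kb). The fifth held SPANXN4 on chromosome X (201 kb).

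Pseudogenes outside the 3 genes also held peaks. KHSRPP1, a pseudogene of the RNA-binding protein gene KHSRP, was the only region of the window with a peak in all 4 lists. It had 6325 fragments under SHP1705, 49 under DMSO, 54 under MG132 and 54 under the combination, or 53.5, 1.65, 1.98 and 1.91 per 1000000. CLIC4P1, a pseudogene of the chloride channel gene CLIC4 inside the noncoding RNA LINC01239, had 2339 fragments under SHP1705 (19.8 per 1000000) and no other peak. LINC01239 itself held further single peaks of 35 fragments under DMSO and 12 under MG132, the latter the lowest pileup called on the arm in that list. The MG132 summit also lay in the noncoding RNA LOC107987054.

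MIR31HG, the host transcript of the microRNA miR-31, held 7 SHP1705 summits and 1 under MG132. The SHP1705 pileups ran from 43 to 109 fragments, or 0.363 to 0.921 per 1000000, all under the 3 tall peaks at CDKN2A. The MG132 peak, chr9:21537321-21537691, had 49 fragments and overlapped none of them. The summit of the SHP1705 peak chr9:21454518-21455870 also lay in the pseudogene IFNWP19. KLHL9, which encodes a ubiquitin ligase adaptor, had 1 SHP1705 peak of 1264 fragments (10.7 per 1000000) that reached 15 bases into its promoter. HACD4, a fatty acid elongation enzyme gene at the edge of the window, had 1 of 408. Neither had a peak in the other lists. The summit of the KLHL9 peak also lay in the noncoding RNA LOC107987053.

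Type I interferon genes encode antiviral cytokines and are short. None of the 16 in the window held a summit in any list, nor did DMRTA1, a transcription factor gene. Of all 22 protein-coding genes of the window, 5 held a summit under SHP1705, 1 under DMSO, 1 under MG132 and 1 under the combination. On the rest of the arm 76.8% of 194 protein-coding genes held one under SHP1705, 39.2% under DMSO, 43.3% under MG132 and 46.9% under the combination. These shares were not matched for gene length, and 16 of the 22 genes were short interferon genes. Outside those 16, only DMRTA1 had no SHP1705 summit. The MG132 peak nearest to the interferon genes, chr9:21204495-21204919, with 49 fragments, lay between IFNA7 and IFNA10. With SHP1705, coding genes held 13 of 23 summits of the window, or 56.5% (36.8 to 74.4 by Wilson), against 57.8% on the rest of the arm, a difference within the interval. In DMSO it was 1 of 4, under MG132 1 of 7 and under the combination 1 of 4. On the rest of the arm the shares were 42.7%, 37.0% and 39.9% in that order. The Wilson intervals of the window, 4.56 to 69.9, 2.57 to 51.3 and 4.56 to 69.9, held them.

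Peak heights in the window differed from the arm in opposite directions. The SHP1705 median pileup was 408 fragments in the window and 93.0 on the rest of the arm. The other lists went the opposite way, with 31.5 against 238 under DMSO, 49.0 against 144 under MG132 and 62.0 against 190 under the combination. The median fold was 6.75 in the window and 24.7 on the rest of the arm under DMSO, 10.9 and 19.4 under MG132, and 13.3 and 22.8 under the combination. In SHP1705 it was 5.80 and 5.03. The medians of the window rest on 4 to 23 peaks.

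SHP1705 was set beside DMSO for fragments that respond to the CRY stabilizer. Of its 23 peaks in the window 22 overlapped no DMSO peak, beside the 90.0% of all SHP1705 peaks given above. Of the 4 DMSO peaks 3 overlapped no SHP1705 peak, where 81.9% of all DMSO peaks had none. MG132, set beside DMSO for proteasome inhibition, had 5 of 7 peaks without a DMSO peak (87.3% over all its peaks), and DMSO had 2 of 4 without an MG132 peak (81.5%). The combination had 2 of 4 without a DMSO peak (85.8%), and DMSO 2 of 4 without a combination peak (83.0%). The 3 comparisons share the DMSO list. The combination also contains SHP1705, and its 4 peaks included 3 without a SHP1705 peak (84.5%), while 22 of 23 SHP1705 peaks had no combination peak (89.7%). For SHP1705 the share in the window was near that of its whole list, and the other shares rest on 4 or 7 peaks each. None of the SHP1705 peaks inside CDKN2A, CDKN2B or MTAP recurred under the combination.

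The partners of these genes elsewhere in the genome held peaks most often under SHP1705. Of 13 genes of the p16, ARF and RB pathway, 13 held a summit under SHP1705, 8 under DMSO, 7 under MG132 and 7 under the combination. Over all 19974 protein-coding genes the shares were 75.9%, 42.1%, 51.6% and 45.7% in the same order. The median gene of the pathway held 2 summits under SHP1705 and 1 in each other list, where the medians over all coding genes were 2, 0, 1 and 0. CCND1, the cyclin D1 gene, reached 173 per 1000000 fragments under SHP1705, 5.18 under DMSO, 5.24 under MG132 and 8.61 under the combination. RB1 reached 36.8, 5.72, 12.8 and 9.74. The related inhibitor genes CDKN2C and CDKN2D had peaks of 10.1 and 3.12 per 1000000 under SHP1705 and none in the other lists, the same presence as CDKN2A, whose tallest was 5.16.

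Of 10 genes of methionine salvage and polyamine synthesis, 10 held a summit under SHP1705, 3 under DMSO, 5 under MG132 and 3 under the combination. Their median was 1.5 summits under SHP1705, 0 under DMSO, 0.5 under MG132 and 0 under the combination, at or below that of all coding genes. MAT2A, which makes S-adenosylmethionine, reached 46.7 per 1000000 under SHP1705 and 8.68 under MG132. PRMT5, the arginine methyltransferase that methylthioadenosine inhibits, reached 3.19 under SHP1705 and had no peak in the other lists. ODC1, the first enzyme of polyamine synthesis, was taller under DMSO, at 23.7, than under SHP1705, at 12.2. MTAP, with 5.44 under SHP1705, lay within the range of this list, whose SHP1705 heights ran from 1.31 to 53.4, the latter at AMD1.

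**Figure D4:**
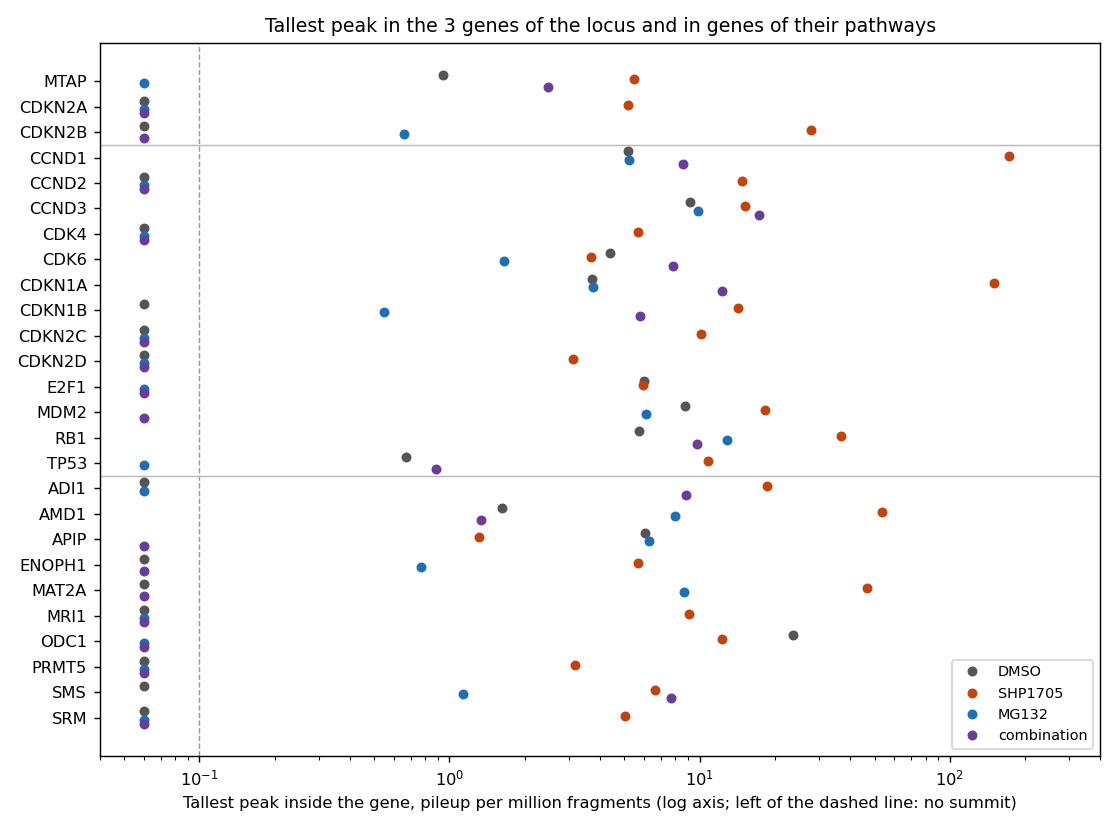
Points give the tallest peak inside each gene as pileup per 1000000 fragments (log axis), coloured by list, for MTAP, CDKN2A and CDKN2B (top), the p16, ARF and RB pathway (middle) and methionine salvage and polyamine synthesis (bottom). Points left of the dashed line mark genes without a summit in that list; every gene shown has a SHP1705 summit, and CDKN2A is among those with none in the other lists.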

How the data were processed

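The labels name MDA-MB-231 cells, 4 treatments and 1 library for each. The submitters' processing notes list the hg38 build and the tools Bowtie2, FastQC, MACS2 and Trimmomatic. MACS 2.2.6 ran on 1 library at a time, per the file headers, keeping duplicates, with no control and a q threshold of 0.01. The deposited signal is the pileup at the summit, unscaled. The deposited ratio is the fold over the background of the library or, where higher, of the surrounding 10000 bp, and the −log10 p-value and −log10 q-value are those of the authors' peak caller.

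From these files, summits were counted in the window, in bins of 100 kb on chromosome 9 up to 43 Mb and inside genes of the RefSeq table (GRCh38.p14), with Python 3.11.15, pandas 2.3.3 and SciPy 1.17.1. Peaks of 2 lists were shared at 1 bp of overlap. The counting functions were tested on simulated peaks. Pileups per 1000000 divide by the fragments in the header. The genes named were the 3 members, fixed neighbours, genes holding a summit, up to 4 genes of each pathway list and genes of the 5 longest peak-free intervals; the figure shows the pathway lists whole. The members and lists were chosen with earlier results of these data known. Other bins, arm ends, peak limits and overlaps were tried. Exon and intron positions were not used here. The peaks at 1 further region of the window enter the counts but are not reported here.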

Additional observations from a re-analysis of the deposited data

How the results depend on the processing

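No paired analysis was possible because each treatment had 1 library. For the same reason no replicate could be left out. The ratio of the bins over the 3 genes to the rest of the arm stayed within its counting interval under every alternative run, at 0.498 to 1.12 under DMSO, 1.51 to 2.96 under SHP1705, 0.311 to 0.862 under MG132 and 0.375 to 0.644 under the combination. For DMSO it passed 1 beside the 10 Mb on either side, an alternative added after the values were seen. Other results moved as follows. With lists of 47822 peaks each, the window held 1 peak under MG132 and 2 under the combination, the stretch over the genes held 0 under MG132 and 7 under SHP1705, the rest of the window 1 under MG132 and 0 under the combination, gained peaks fell to 1 under MG132 and 1 under the combination, and DMSO peaks lost under MG132 rose to 4. The interval over CDKN2A then grew to 1247 kb under MG132 and 2034 kb under the combination, and over the 3 lists without SHP1705 it was 45 kb at full length. The share of empty bins on the rest of the arm was 63.3% under DMSO, 48.8% under SHP1705, 51.5% under MG132 and 56.5% under the combination with bins of 50 kb. With bins of 200 kb it was 28.3%, 15.6%, 16.1% and 23.9%, and with lists of equal length 49.3% under SHP1705, 42.7% under MG132 and 43.7% under the combination. Genes of the window with a peak within 10 kb numbered 8 under DMSO, 14 under MG132 and 7 under the combination, since wider spans hold more peaks. The cut to equal length kept the peaks with the highest −log10 q-value. It left 47822 of 69842 MG132 peaks on chromosomes 1 to 22 and X, but 1 of 7 in the window. Of 57174 combination peaks it left 47822, and 2 of 4 in the window. Of 85840 SHP1705 peaks it left 47822, and 17 of 23 in the window. Why the window shares differed from those of the lists was not tested. In DMSO, MG132 and the combination, 4 to 7 peaks in the window limit every ratio.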
